A study of Mus musculus with 12 samples.

Results

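The transcripts of 10 amino acid transporters known to respond to cellular stress were followed in isolated mouse pancreatic islets. They are the cationic transporters Slc7a1, Slc7a2 and Slc7a3, the light chains Slc7a5 and Slc7a11 with their shared heavy chain Slc3a2, the neutral transporters Slc1a4, Slc1a5 and Slc38a2, and the glycine transporter Slc6a9. The genes were chosen by name and found through the Ensembl identifiers of the count table; no measured value enters the rule, although earlier results of these data were known when the list was drawn up. All 10 were found among its 38561 genes, and all 10 passed the filter on low counts that left 15352 genes for testing.

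The study crossed 2 strain backgrounds with a transgene and sequenced islet mRNA of 12 male mice aged 11 weeks, 3 mice in each of 4 groups. NOD_insHEL islets came from mice on the NOD/LtJ background with the insHEL transgene, labelled Tg(ILK3mHEL)3Ccg, and NOD islets from that background without it. B10_insHEL islets came from mice on the C57BL/10SnSg background with the same transgene, and B10 islets from that background without it. The transgene drives a membrane form of hen egg lysozyme (HEL) from an insulin promoter, so that beta cells make this foreign protein. All 4 groups carried the Ragtm1Mom deletion (Rag-/-), which leaves mice without mature T and B cells, and the MHC k haplotype, and all mice were labelled normoglycemic. The T cell gene Cd3e had no count in any library. NOD mice are the classical strain that develops autoimmune diabetes, and B10 mice do not. Strain differences are given as NOD over B10 and transgene differences as insHEL over no insHEL.

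Amino acid transporters bring the building blocks of protein into the cell, and beta cells, which make large amounts of insulin, also respond to some of these amino acids. When amino acids run short or unfolded protein accumulates in the endoplasmic reticulum, the kinases GCN2 (Eif2ak4) and PERK (Eif2ak3) phosphorylate the initiation factor eIF2α, and translation of the transcription factor ATF4 increases. ATF4 binds C/EBP-ATF response elements (CARE) and raises transcription of transporter genes such as Slc7a11, Slc7a5, Slc3a2, Slc1a5 and Slc38a2, while NRF2 acts on Slc7a11 through antioxidant response elements (ARE).

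Promoter windows of 300 bases, most of them upstream of an annotated start, were listed by RefSeq (GRCm38.p6) for 6 of the 10 genes, 9 windows in all. None was listed for Slc7a2, Slc7a3, Slc7a5 or Slc1a5. The CARE core TGATGNAA was searched on both strands. It was found in 2 of the 9 windows, 1 of Slc7a11 and 1 of Slc1a4, and both matching stretches are shown here. Whether such matches go with the strain differences below was not tested. The core was present in 3.97% of 32851 promoter windows in the same table. Both stretches are printed 5′ to 3′ on the minus strand, each gene's own, with every match to the core in capitals. The Slc7a11 stretch is chr3:50443623-50443709 and holds 2 matches on opposite strands, whose first bases lie at -66 and -47 relative to the start. The Slc1a4 stretch is chr11:20332710-20332739 and holds 1 match, from -4.
Slc7a11: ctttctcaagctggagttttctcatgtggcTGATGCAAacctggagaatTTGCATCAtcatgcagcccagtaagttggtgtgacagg
Slc1a4: agcctccagcgtgcctcctgcgTTGCATCA
The ARE core TGACNNNGC, also on both strands, was found in 4 of the 9 windows (2 of Slc6a9, 1 of Slc7a1 and 1 of Slc38a2), and in 12.4% of all windows. No window of these genes held both cores. A match in these letters describes the sequence and does not show that a factor binds it.

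Library totals ran from 2212062 to 21138456 counts, the lowest in NOD_insHEL replicate 3, and the 10 transporters together took 0.0779% to 0.143% of a library. Levels are given as CPM, a gene's count scaled to the depth of its library, here with TMM library sizes. On raw library totals, a count of 0 allowed a level of up to 0.142 to 1.36 CPM, with the highest limit in NOD_insHEL replicate 3. These limits leave out the TMM factors, which ran from 0.925 to 1.055, and cover counting error only. The summed level of 10 beta cell markers was 183800 to 294100 CPM. Ins1 and Ins2 held 22.4% to 25.6% of counts in NOD-background libraries and 15.8% to 21.6% in B10-background libraries. Pancreatic acinar cells, the enzyme-producing cells around the islets, left different amounts of RNA in the groups. The summed level of 16 acinar markers was 56.2 to 97.5 CPM in NOD_insHEL, 145 to 264 CPM in NOD, 41.6 to 2288 CPM in B10_insHEL and 3290 to 4214 CPM in B10 libraries. On average over both transgene states, 13 of the 14 acinar markers tested were called lower in NOD than in B10, where 17.6% of all genes were. Amy2a5 was at 0 in all 4 groups and Ptf1a at 0 in both NOD groups. Of the other marker lists, 5 of 6 endothelial, 3 of 3 delta cell and 3 of 4 Schwann cell markers were called higher in NOD on average. Of 15352 genes tested, 2406 were called higher. The remaining endothelial marker was called lower. Of 10 beta cell markers, 4 were called higher and 3 lower, and of 6 stellate and fibroblast markers 2 were called higher. Of 5 duct markers 1 was called higher and 1 lower, and of 6 alpha cell markers 1 was called lower. The part of these lists in the transporter differences was not tested. In B10_insHEL only replicate 2 was rich in acinar RNA. Strain differences were therefore also fitted with the acinar score, the mean log2(CPM + 1) of the acinar markers, as a covariate. This score was 2.865 to 3.6 in NOD and 6.467 to 6.78 in B10 libraries, so without insHEL it ran with strain. In bulk islets, fewer cells of a type and less RNA per cell cannot be told apart, and loss of NOD reads in mapping to the reference strain was not tested. The B10 libraries carry sample numbers far from those of the other 9 libraries; if these mark a batch, it and the group cannot be told apart.

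Averaged over both transgene states, 6 of the 10 transporters were lower in NOD than in B10 islets and none was higher: Slc7a11, Slc1a4, Slc7a1, Slc6a9, Slc1a5 and Slc3a2 (edgeR's quasi-likelihood test, Benjamini-Hochberg adjusted over all genes). Of all genes tested, 17.6% were called lower in this comparison and 33.3% in either direction. The median log2 difference was -0.66 over the 10 transporters and 0.01 over all genes tested, and all 10 transporters were below 0. The averaged difference is the mean of the differences with and without insHEL and shares its libraries with both. Libraries of the strains did not overlap for 3 transporters (Slc7a1, Slc1a5 and Slc6a9), against 6.4% of all genes in that direction. With the acinar score in the fit, 3 of the 6 calls were left (Slc7a1, Slc3a2 and Slc1a5), while 15.2% of all genes were called.

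**Figure D1:**
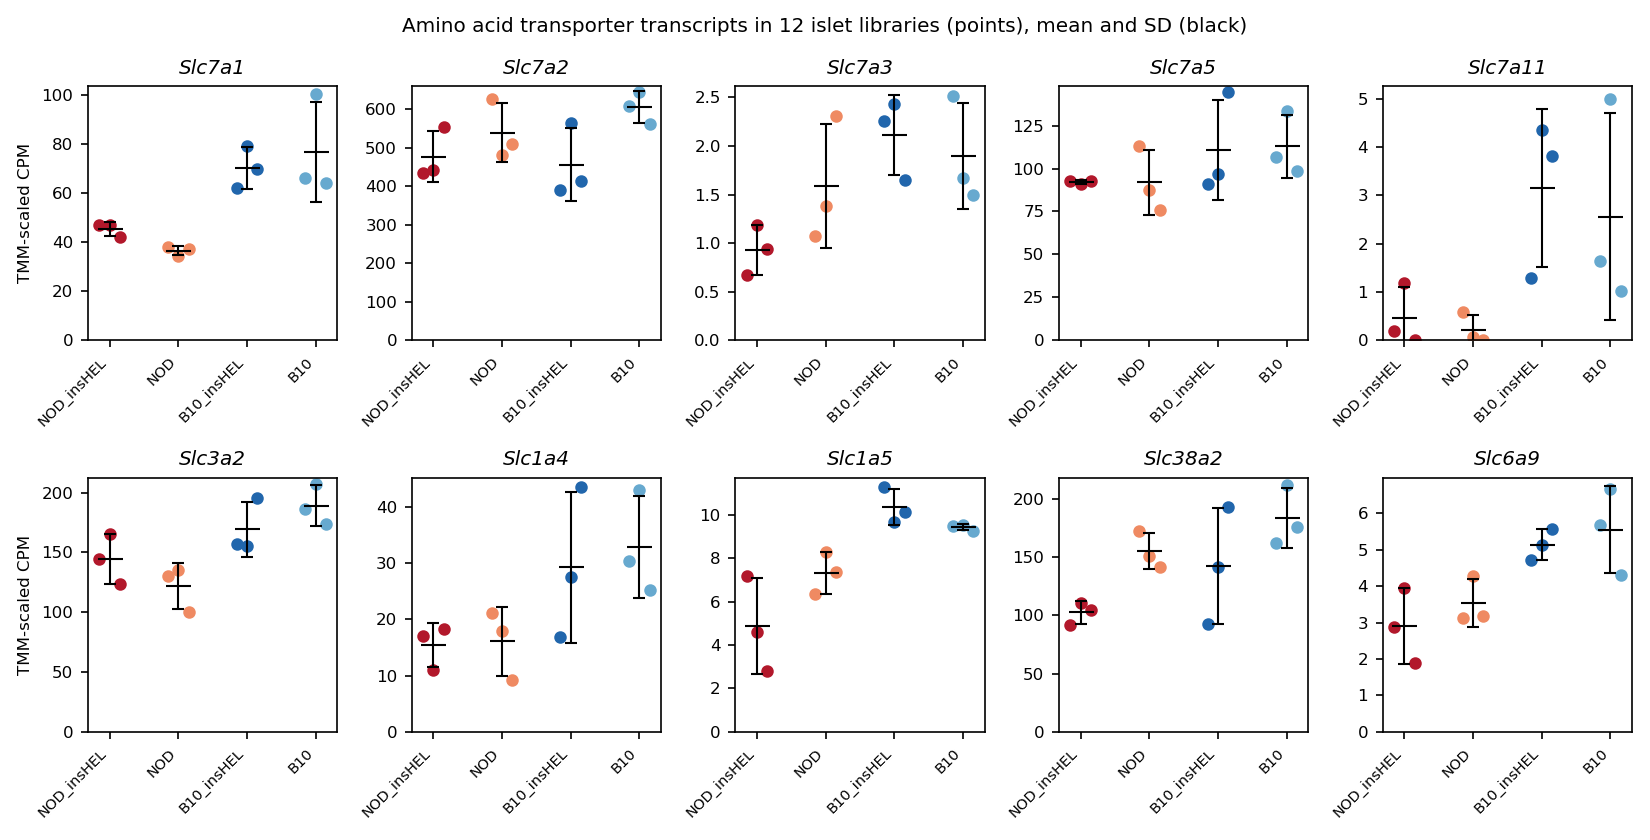
TMM-scaled CPM of each transporter (y axis, linear from 0) in NOD_insHEL, NOD, B10_insHEL and B10 islets; each point is 1 library of 1 mouse, and the black lines are the mean and SD of 3 libraries, cut at 0 for Slc7a11. Slc7a1 separates the strains in all libraries, from 34.5 to 47.3 CPM on the NOD background and from 62.2 to 100.5 CPM on the B10 background.

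Slc7a1 encodes CAT1, the widely expressed carrier of arginine and lysine, and lies on chromosome 5 (148327410 to 148399904, minus strand, GRCm38). It was measured at 47.3, 47.0 and 42.3 CPM in NOD_insHEL libraries and at 37.9, 34.5 and 37.3 CPM in NOD libraries. In B10_insHEL libraries it was at 62.2, 79.4 and 69.7 CPM, and in B10 libraries at 66.1, 100.5 and 64.4 CPM. Every NOD-background library was below every B10-background library. The averaged log2 difference was -0.85 (SE 0.10, adjusted p = 3.48e-06). It was -0.62 with insHEL (SE 0.15, adjusted p = 0.00877) and -1.08 without it (SE 0.15, adjusted p = 2.11e-05), and the averaged call was made under all 21 alternative settings. With NOD_insHEL replicate 3 and B10_insHEL replicate 2 both left out, the difference with insHEL was -0.49 (adjusted p = 0.111).

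Slc7a2 encodes CAT2, a related cationic carrier (chromosome 8, 40862396 to 40922308, plus strand). It had 434, 442 and 553 CPM in NOD_insHEL libraries and 625, 482 and 510 CPM in NOD libraries, against 389, 564 and 413 CPM in B10_insHEL and 607, 644 and 562 CPM in B10 libraries. The strains overlapped in both pairs. The averaged log2 difference was -0.05 (95% interval -0.25 to 0.14, adjusted p = 0.722), which leaves room for a change of either sign, and the fit with the acinar score gave 0.17.

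Slc7a3, encoding CAT3, the least abundant of the cationic carriers here (X chromosome, 101079210 to 101086020, minus strand), had 0.67, 1.19 and 0.94 CPM in NOD_insHEL and 1.07, 1.38 and 2.30 CPM in NOD libraries. It had 2.26, 2.44 and 1.65 CPM in B10_insHEL and 2.52, 1.67 and 1.499 CPM in B10 libraries. The insHEL libraries of the strains did not overlap, while NOD and B10 did. These values rest on 2 to 43 counts a library, and the averaged difference of -0.77 (SE 0.30) missed the threshold (adjusted p = 0.0544).

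The 2 main cationic carriers thus stood at different ratios in the strains. Per exon length (RPKM, the CPM divided by kilobases of exon), Slc7a2 exceeded Slc7a1 13.3 ± 2.77 times in NOD_insHEL and 8.11 ± 0.767 times in B10_insHEL libraries (SD, n = 3 each). Without the transgene the ratio was 18.6 ± 1.96 in NOD and 10.2 ± 1.87 in B10 libraries. Neither pair of groups overlapped; the ratios were not tested.

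Slc3a2 encodes 4F2hc (CD98), the heavy chain that carries both light chains to the cell surface (chromosome 19, 8706882 to 8723369, minus strand). It had 145, 165 and 123.5 CPM in NOD_insHEL and 130, 135 and 99.8 CPM in NOD libraries. It had 157, 155 and 196 CPM in B10_insHEL and 186, 207 and 173.5 CPM in B10 libraries. NOD libraries lay below all B10 libraries, while NOD_insHEL replicate 2 lay above 2 of the B10_insHEL libraries. Slc3a2 was lower in NOD on average (log2 difference -0.43, SE 0.09, adjusted p = 0.0016) and without insHEL (-0.63, SE 0.13, adjusted p = 0.00141), and had -0.22 with insHEL (SE 0.13, adjusted p = 0.324). The averaged call was made under all 21 alternative settings.

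Slc7a5 encodes LAT1, the light chain that exchanges large neutral amino acids such as leucine (chromosome 8, 121881150 to 121907694, minus strand). It was at 92.5, 90.9 and 93.0 CPM in NOD_insHEL and at 113, 87.6 and 75.8 CPM in NOD libraries. It was at 91.1, 97.1 and 145 CPM in B10_insHEL and at 107, 133 and 98.5 CPM in B10 libraries. The groups overlapped in both pairs, and the 3 NOD_insHEL libraries lay closest together. The averaged difference of -0.28 missed the threshold (SE 0.12, adjusted p = 0.0881).

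Slc7a11 encodes xCT, the light chain that takes up cystine in exchange for glutamate and so feeds glutathione synthesis (chromosome 3, 49892526 to 50443614, minus strand). It was counted 2, 9 and 0 times in NOD_insHEL and 7, 1 and 0 times in NOD libraries, against 12, 50 and 37 times in B10_insHEL and 28, 111 and 15 times in B10 libraries. As levels these are 0.19, 1.19 and 0 CPM in NOD_insHEL, 0.58, 0.07 and 0 CPM in NOD, 1.29, 4.35 and 3.82 CPM in B10_insHEL, and 1.64, 5.00 and 1.02 CPM in B10 libraries. The measured values of the strains did not overlap within either pair, although NOD_insHEL replicate 2 exceeded B10 replicate 3. The 0 of NOD_insHEL replicate 3 allowed up to 1.36 CPM on its raw total, above B10_insHEL replicate 1, so the separation with insHEL is within counting error. Of the 10 transporters it had the largest averaged difference, -2.95 (SE 0.66, adjusted p = 0.00407), and fitted differences at such counts depend on the prior count. Without insHEL the difference was -3.38 (SE 0.94, adjusted p = 0.0167), and with insHEL it was -2.51 (SE 0.93, adjusted p = 0.104). The values moved with single libraries: without NOD replicate 1 the difference without insHEL was -5.51 and still called, and over all alternatives it ran from -5.51 to -2.44 without insHEL and from -4.25 to -1.85 with it. The averaged call was lost with the acinar score in the fit (-2.75, adjusted p = 0.0691). The call without insHEL was lost with the acinar score (adjusted p = 0.189), without NOD replicate 2 (0.0813) or 3 (0.0578), and without B10 replicate 2 (0.0539).

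The light and heavy chains were compared per length. Slc7a5 stood at 0.616 ± 0.097 of Slc3a2 in NOD_insHEL and at 0.617 ± 0.077 in B10_insHEL libraries, with overlap. It stood at 0.721 ± 0.104 of Slc3a2 in NOD and at 0.566 ± 0.040 in B10 libraries (SD, n = 3 each). These libraries did not overlap, but NOD replicate 2 (0.6169) and B10 replicate 2 (0.6125) nearly met. The ratios of light to heavy chain were not tested. Slc7a11 reached at most 0.00711 of Slc3a2 in any library. Across the 12 libraries Slc7a5 and Slc3a2 were the closest pair among the 10 genes, with a root mean square difference of 0.195 on centred log2 CPM.

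**Figure D2:**
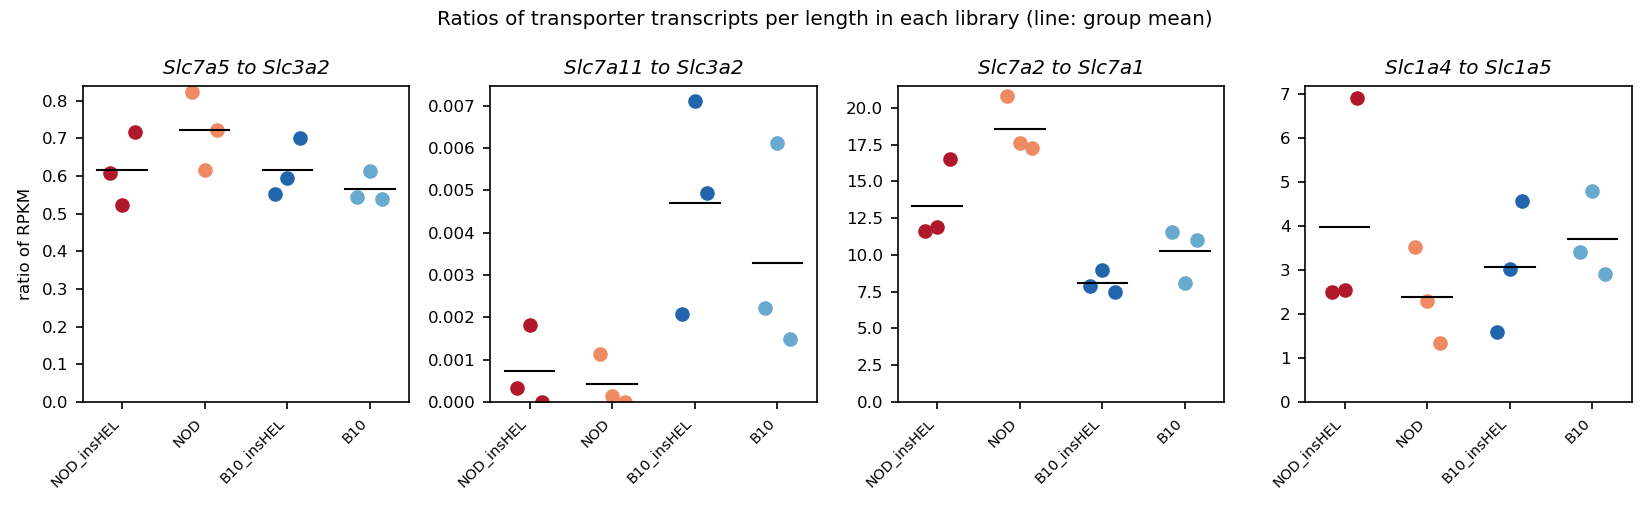
Ratios of RPKM within each library (y axis, linear from 0) for 4 pairs of transporters in NOD_insHEL, NOD, B10_insHEL and B10 islets; points are libraries and lines group means of 3. The Slc7a2 to Slc7a1 ratio is higher in NOD_insHEL than in B10_insHEL and higher in NOD than in B10, with no overlap, while the Slc1a4 to Slc1a5 ratio overlaps in both pairs.

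Slc1a4 encodes ASCT1, a carrier of serine and alanine (chromosome 11, 20302180 to 20332713, minus strand). It had 17.0, 11.1 and 18.3 CPM in NOD_insHEL and 21.1, 17.95 and 9.22 CPM in NOD libraries. It had 16.9, 27.5 and 43.5 CPM in B10_insHEL and 30.3, 42.9 and 25.3 CPM in B10 libraries. NOD lay below B10 in all libraries, while B10_insHEL replicate 1 fell among the NOD_insHEL values. Slc1a4 was lower in NOD on average (log2 difference -0.98, SE 0.29, adjusted p = 0.0267). The call was lost with the acinar score (adjusted p = 0.129), islet number (0.0525) or a block for replicate number (0.069) in the fit. It was also lost with NOD_insHEL replicate 3 and B10_insHEL replicate 2 both left out (0.0789). Leaving out NOD_insHEL replicate 1 (0.0508) or 2 (0.0672), B10_insHEL replicate 2 (0.0515) or B10 replicate 2 (0.0518) lost it too. The log2 difference stayed between -1.11 and -0.87 in these fits.

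Slc1a5 encodes ASCT2, which exchanges glutamine and other neutral amino acids (chromosome 7, 16781340 to 16798274, plus strand). It had 7.19, 4.62 and 2.82 CPM in NOD_insHEL and 6.36, 8.29 and 7.345 CPM in NOD libraries. It had 11.3, 9.65 and 10.1 CPM in B10_insHEL and 9.48, 9.51 and 9.27 CPM in B10 libraries. Every NOD-background library lay below every B10-background one. Slc1a5 was lower in NOD on average (-0.64, SE 0.16, adjusted p = 0.00355) and with insHEL (-0.93, SE 0.24, adjusted p = 0.0115), and had -0.36 without it (SE 0.21, adjusted p = 0.210). Thinned to the depth of the shallowest library, the averaged difference was -0.35 (adjusted p = 0.404), and the call with insHEL was lost after thinning (-0.69, adjusted p = 0.380), in the fit of these 2 groups alone (-0.94, adjusted p = 0.0504) and without NOD_insHEL replicate 2 (-0.81, adjusted p = 0.0703).

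Slc38a2 encodes SNAT2, a sodium-coupled importer of small neutral amino acids (chromosome 15, 96687392 to 96699730, minus strand). It had 92.0, 111 and 105 CPM in NOD_insHEL and 172, 151 and 142 CPM in NOD libraries. It had 92.9, 141 and 193 CPM in B10_insHEL and 162, 212 and 176 CPM in B10 libraries. Both strain pairs overlapped, and the B10_insHEL libraries spread 2.08 times from lowest to highest. The averaged difference was -0.36 (SE 0.14, adjusted p = 0.0695); without B10_insHEL replicate 1, the lowest of its group, it was -0.48 (adjusted p = 8.15e-04).

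Slc6a9 encodes GLYT1, a glycine transporter (chromosome 4, 117834506 to 117875198, plus strand). It had 2.88, 3.96 and 1.88 CPM in NOD_insHEL and 3.14, 4.29 and 3.17 CPM in NOD libraries. It had 4.73, 5.13 and 5.57 CPM in B10_insHEL and 5.68, 6.67 and 4.29 CPM in B10 libraries. NOD-background libraries lay below B10-background ones throughout. The nearest were NOD replicate 2 (4.288 CPM, 59 counts) and B10 replicate 3 (4.294 CPM, 63 counts), whose order is within counting error. Slc6a9 was lower in NOD on average (log2 difference -0.68, SE 0.19, adjusted p = 0.0102), and in neither pair alone (-0.72 with insHEL, adjusted p = 0.119; -0.64 without, adjusted p = 0.0652). The averaged call was lost with the acinar score (-0.71, adjusted p = 0.0906) and after thinning (-0.58, adjusted p = 0.172). Its exons overlap those of Ccdc24, on the opposite strand, over 1429 bases; Ccdc24 had 3 to 25 counts a library, against 4 to 148 for Slc6a9, and the strand setting of the counting is not given in the sources used here.

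**Figure D3:**
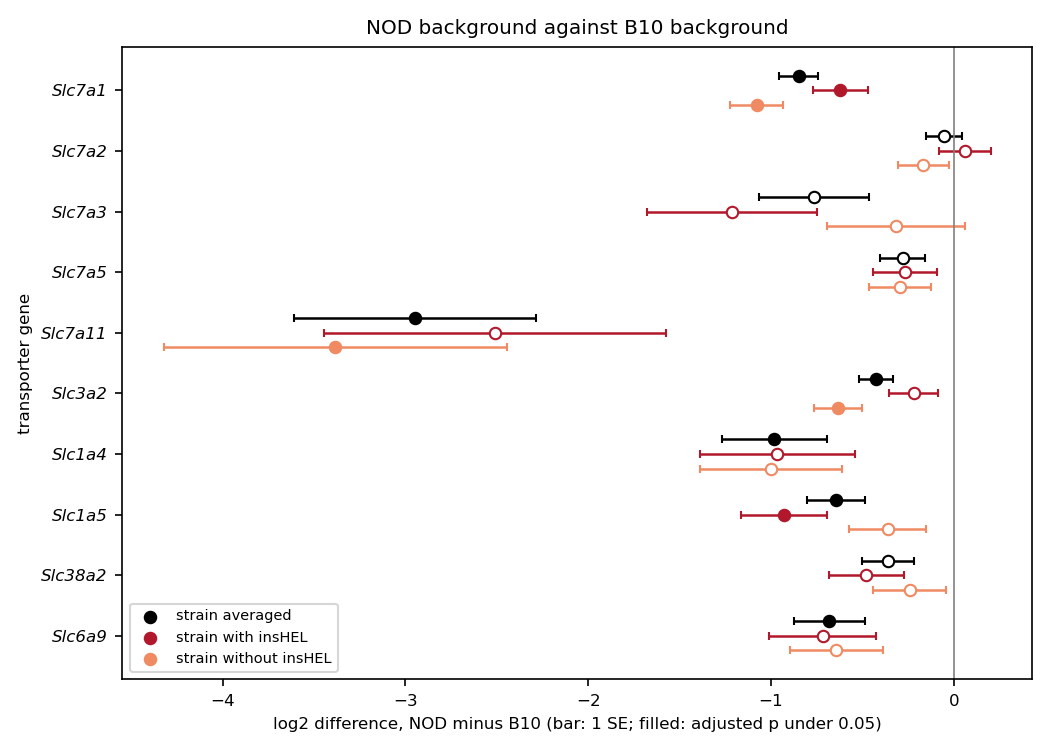
Log2 difference of NOD over B10 (x axis) for each transporter, averaged, with insHEL and without insHEL; filled points passed an adjusted p of 0.05, open points did not, and bars are 1 SE to each side. Averaged points run from -2.95 for Slc7a11 to -0.05 for Slc7a2.

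With insHEL, 2 of the 10 transporters were lower in NOD_insHEL than in B10_insHEL islets, Slc7a1 and Slc1a5, where 6.5% of all genes were called lower and 12.1% in either direction. Libraries did not overlap for 5 transporters in that direction (Slc7a1, Slc7a3, Slc7a11, Slc1a5 and Slc6a9), against 14.2% of all genes. Without insHEL, 3 transporters were lower in NOD than in B10 islets, Slc7a1, Slc7a11 and Slc3a2, where 14.9% of all genes were called lower and 28.4% in either direction. Libraries did not overlap for 6 (Slc7a1, Slc7a11, Slc3a2, Slc1a4, Slc1a5 and Slc6a9), against 23.8% of all genes. That Slc3a2 passed in one pair and Slc1a5 in the other does not show that the pairs differ: the test of that difference, the interaction, gave 0.41 for Slc3a2 (adjusted p = 0.387) and -0.57 for Slc1a5 (adjusted p = 0.483).

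For the transgene itself no transporter passed the threshold of edgeR's quasi-likelihood test. Between NOD_insHEL and NOD, 0 of 10 were called, where 7.06% of all genes were. At an unadjusted p under 0.05 there were 2, where 23.5% of all genes were, and DESeq2 called 1 of them, Slc38a2, where it called 10.6% of all genes. Slc38a2 had a log2 difference of -0.60 (SE 0.21, adjusted p = 0.0954), with every NOD_insHEL library, at 92.0 to 111 CPM, below every NOD library, at 142 to 172 CPM. DESeq2 gave -0.59 (adjusted p = 0.0284), and edgeR on these 2 groups alone gave -0.60 (adjusted p = 0.0028). Slc7a1 had 0.33 (SE 0.15, adjusted p = 0.201), with every NOD_insHEL library above every NOD library. The libraries of these groups did not overlap for 13.3% of all genes in each direction. Between these groups 4 of 6 endothelial markers were called lower in NOD_insHEL, with summed levels of 688 to 838 CPM against 921 to 1345 CPM in NOD libraries, and the part of this in the transporter values was not tested.

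Between B10_insHEL and B10, 0 of 10 were called by edgeR's quasi-likelihood test, where 6.85% of all genes were, with 1 at an unadjusted p under 0.05, where 21.8% of all genes were, and 0 by DESeq2, which called 9.79% of all genes. That transporter was Slc7a2, at -0.41 (SE 0.14, adjusted p = 0.0834), and its libraries overlapped because B10_insHEL replicate 2, the acinar-rich one, reached 564 CPM. Without that library the difference was -0.59 (adjusted p = 0.00681). Slc1a5 was the 1 transporter whose libraries did not overlap, higher in B10_insHEL, as for 13.1% of all genes, with a log2 difference of 0.13 (SE 0.21, adjusted p = 0.763). Slc38a2 had -0.36 (SE 0.20, adjusted p = 0.318), and -0.65 without B10_insHEL replicate 3 (adjusted p = 0.0322). The transgene difference did not itself differ between strains past the threshold for any transporter (edgeR's quasi-likelihood test, 0 of 10 called, 0.0586% of all genes called). At an unadjusted p under 0.05 there were 2, where 12.2% of all genes were, and DESeq2 called 0, where it called 0.705% of all genes. Those 2 were Slc7a1, at 0.46, and Slc3a2, at 0.41. The intervals were wide for the scarce genes, from -1.97 to 3.71 for Slc7a11.

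**Figure D4:**
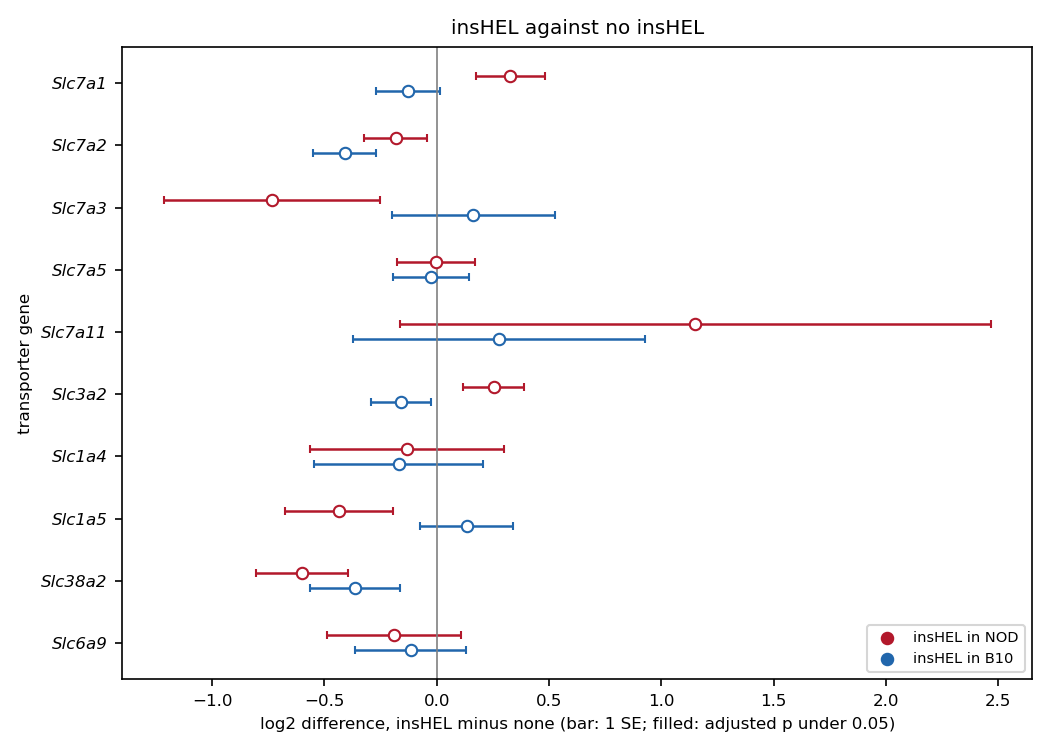
Log2 difference of insHEL over no insHEL (x axis) for each transporter in NOD and in B10 islets; open points did not pass an adjusted p of 0.05 and bars are 1 SE to each side. No point is filled; Slc38a2 lies at -0.60 in NOD islets and Slc7a2 at -0.41 in B10 islets.

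Levels per exon length ordered the genes over a wide range. Averaged over the 4 groups, Slc7a2 stood at 56.8 RPKM, Slc3a2 at 44.2, Slc7a5 at 27.5 and Slc38a2 at 16.5 RPKM. Slc1a4 followed at 5.97, Slc7a1 at 4.98, Slc1a5 at 1.92, Slc6a9 at 0.833, Slc7a3 at 0.431 and Slc7a11 at 0.115 RPKM. The ranges of neighbours, pooled over the 12 libraries, overlapped with 1 exception, Slc7a1 over Slc1a5. Within each library, however, the order held for all neighbours except Slc7a2 with Slc3a2 and Slc1a4 with Slc7a1, which changed places in some libraries. Lengths are of all annotated exons together (13922 bases for Slc7a11), which lowers the RPKM of genes with many alternative exons.

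Single libraries stood out across the 10 genes, but the share of all genes with the same order of libraries was not counted. B10 replicate 2 was the highest of its group for 9 of the 10 transporters and the highest of all 12 libraries for 6, and B10 replicate 3 was the lowest of its group for 9. B10_insHEL replicate 1 was the lowest of its group for 7. B10 replicate 2 was the deepest library, and B10 replicate 3 came from 20 islets, the fewest. The part of depth or islet number in these ranks was not tested. The widest spreads within a group, from lowest to highest library, were those of Slc7a11, 4.89 times in B10 and 3.37 times in B10_insHEL among groups without a 0, and Slc1a4 spread 2.58 times in B10_insHEL.

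**Figure D5:**
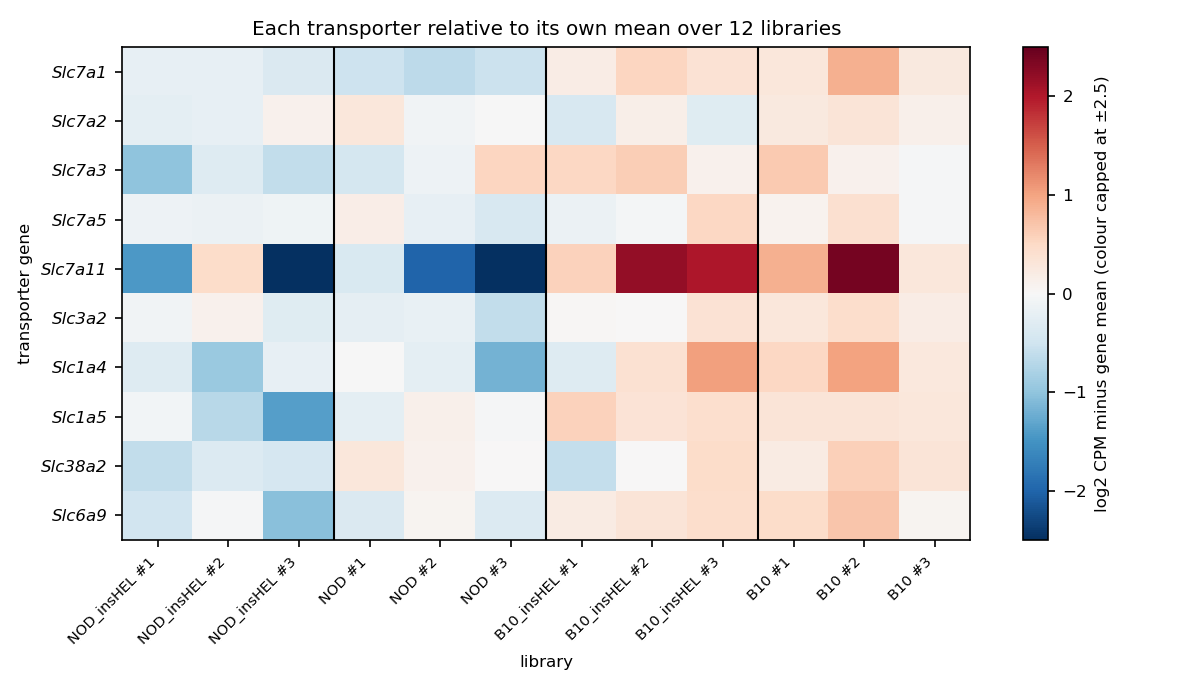
Log2 CPM of each transporter (rows) minus its mean over the 12 libraries (columns, by group), with colour capped at ±2.5. Slc7a11 varies most, with an SD of 1.78, and Slc7a2 least, with an SD of 0.246.

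For the 2 called transporters with the largest averaged differences, the genes of most similar profile over the 12 libraries were sought among 12992 genes, by the root mean square difference of centred log2 CPM. For Slc7a11 these were Hspa8 and Fut1 (0.672 each) and Phgdh (0.788), against an SD of 1.78 for Slc7a11 itself. Hspa8 encodes a heat shock cognate chaperone with many processed copies, so its count is uncertain, Fut1 a fucosyltransferase, and Phgdh the first enzyme of serine synthesis. For Slc1a4 they were Aars (0.312), Mthfd2 (0.312) and Cars (0.324), against an SD of 0.683. Aars and Cars encode the alanyl and cysteinyl tRNA synthetases and Mthfd2 a mitochondrial folate enzyme. Likeness here includes the strain difference, and the libraries are shared.

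Of 44 other amino acid transporters listed, 24 were tested, 6 were lower in NOD on average, 1 was higher and 17 were not called, where 33.3% of all genes were called in either direction, with a median log2 difference of -0.09. Slc6a17, a vesicular neutral amino acid carrier, had -0.67 (SE 0.08, adjusted p = 3.15e-06), at 80.8 ± 4.30 CPM in NOD_insHEL and 78.6 ± 10.2 CPM in NOD, against 125 ± 13.6 CPM in B10_insHEL and 129 ± 12.2 CPM in B10 (SD, n = 3 each). Slc16a10, the aromatic amino acid carrier TAT1, had -0.50 (adjusted p = 6.92e-05), and Slc7a8, the second large neutral light chain LAT2, had -0.49 (adjusted p = 1.05e-04). Slc38a11 had -0.99 (adjusted p = 0.0179). Slc6a6, the taurine transporter, was the one that was higher (0.37, adjusted p = 8.81e-04).

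Of 17 stress sensors and transcription factors, 6 were lower in NOD on average, 2 were higher and 9 were not called, against 33.3% of all genes called in either direction and 17.6% lower, with a median of -0.20. Eif2ak3, encoding PERK, was lower (-0.70, SE 0.11, adjusted p = 8.66e-05), at 75.9 ± 12.1 CPM in NOD_insHEL and 59.8 ± 4.78 CPM in NOD, against 123 ± 9.70 CPM in B10_insHEL and 98.7 ± 26.8 CPM in B10. Eif2ak4, encoding the amino acid sensor GCN2, was higher (0.33, SE 0.10, adjusted p = 0.0108). Atf4 itself had -0.27 (SE 0.11, adjusted p = 0.0706); its transcript level does not report its translation. The stress factors Nupr1 (-3.64, adjusted p = 3.56e-06), Atf5 (-0.73, adjusted p = 0.0256) and Cebpg (-0.67, adjusted p = 0.00266) and the heme-regulated kinase gene Eif2ak1 (-0.37, adjusted p = 0.00131) were lower. Nupr1 is known as a gene that acinar cells induce in pancreatitis, and the part of acinar RNA in its difference was not tested. It stood at 7.13 ± 4.54 CPM in NOD_insHEL and 9.51 ± 1.13 CPM in NOD, against 95.1 ± 34.5 CPM in B10_insHEL and 127 ± 7.11 CPM in B10.

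Of 26 genes by which amino acids reach mTORC1, the growth-controlling kinase complex, 7 were lower in NOD on average, 2 were higher and 17 were not called, with a median of -0.12. The share called is close to the 33.3% of all genes. Eif4ebp1 encodes a repressor of translation that mTORC1 inactivates, and had -1.86 (SE 0.21, adjusted p = 1.49e-06). Rragd encodes a subunit of the Rag GTPases, and had -1.01 (SE 0.10, adjusted p = 6.9e-08). The leucine sensor gene Sesn2 (-0.68, adjusted p = 6.33e-06) and its relative Sesn3 (-0.70, adjusted p = 9.13e-05) were lower, and the arginine sensor gene Castor1 was higher (0.88, adjusted p = 0.0224).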

How the data were processed

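The authors deposited 1 table of read counts per Ensembl gene for 12 islet libraries. Per the labels' protocols, islets were freed by collagenase with α-amanitin and actinomycin D present, purified on a dextran gradient and picked (20 to 137 islets a mouse). A stranded kit for mRNA was used. The submitters' processing notes name cutadapt, TopHat2 2.0.8b, HTSeq, DESeq and GRCm38; annotation release, strand setting and counting mode are not given in the sources used here.

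The counts were fitted with edgeR 4.0.16 (R 4.3.3) over all 12 libraries: filterByExpr, TMM factors, 4 group means, robust quasi-likelihood F-test, Benjamini-Hochberg adjustment over 15352 genes, threshold 0.05. SE is the log2 difference divided by the square root of F, and 95% intervals are the normal ones from that SE. The common biological coefficient of variation was 0.142. CPM use TMM library sizes, RPKM the union of exons in GENCODE vM21 (GRCm38). Symbols were matched for 36723 identifiers (95.2%), which hold 99.8% of counts. Centred log2 CPM used a prior count of 2, the acinar score a pseudocount of 1. The code was tested on simulated data. DESeq2 1.42.0, other normalizations and filters, covariates, thinning, a replicate block and leaving out each library were alternatives; leaving out 2 insHEL libraries together was added after seeing the data. The genes, lists and tests were chosen with earlier results of these data known. All 10 transporters are named; of each further list, the 5 called genes of largest averaged difference, with Atf4, Eif2ak3 and Eif2ak4; and for the 2 called transporters of largest difference the 3 genes of closest profile.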

Additional observations from a re-analysis of the deposited data

How the results depend on the processing

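Of 1287 alternative values of the 10 transporters over 6 comparisons, 1187 kept their direction and side of the threshold. Another 20 lost a call, 27 gained one and 53 changed sign, none of these called. A value of the same sign without an adjusted p, as DESeq2 leaves for genes it filters out, was counted as kept. The count of transporters called in the averaged strain comparison, 6, was 3 with the acinar score (15.2% of all genes called), 3 after thinning (26.6%; Slc7a11 and Slc7a3 were filtered out), 8 without the filter on low counts (24%; Slc7a5 and Slc38a2 added), 7 with DESeq2 (33.3%; Slc38a2 added), and 5 to 8 with 1 library left out (27.6% to 33.4%). With insHEL the 2 calls became 1 after thinning (9.61% of all genes). They became 1 with NOD_insHEL replicate 3 and B10_insHEL replicate 2 both left out (8.63%), and 1 to 3 with 1 left out (8.57% to 12.6%). Without insHEL the 3 calls were 2 to 4 with 1 left out (18.4% to 31.3% of all genes). For insHEL in NOD, DESeq2 (10.6% of all genes) and the fit of only the groups compared (9.46%) each called 1. Leaving out 1 library gave 0 to 1 (0.682% to 9.8%). For insHEL in B10, 1 was called without the filter (6.41% of all genes), 1 with both libraries left out (11.3%), and 0 to 1 with 1 left out (2.76% to 10.1%). Replicate numbers did not pair the samples, as 18 same-number pairs had correlations of -0.095 to 0.0803, and with the replicate block 5, 3 and 3 transporters were called averaged, with and without insHEL (32.7%, 12.1% and 27.8% of all genes). The averaged call lost with the block was that of Slc1a4 (-0.97, adjusted p = 0.069). The sign changes, as log2 differences, were these, and their cause was not tested. With the acinar score Slc7a2 was 0.17 averaged and 0.16 without insHEL, and Slc7a1 was 0.016 for insHEL in B10. With islet number, insHEL in B10 gave -0.035 for Slc7a3 and -0.16 for Slc7a11, and the interaction 0.081 for Slc6a9. DESeq2 gave 0.0042 and RLE factors 0.0029 for Slc7a5 with insHEL in NOD. After thinning, insHEL in B10 gave 0.0018 for Slc7a5 and -0.15 for Slc1a5, and the interaction -0.075 for Slc7a5 and -0.12 for Slc1a4. With both libraries left out, insHEL in B10 gave 0.061 for Slc7a5 and -0.037 for Slc7a11, and the interaction -0.070 for Slc7a5, -0.093 for Slc1a4 and 0.033 for Slc6a9. With 1 library left out, Slc7a2 ran from -0.13 to 0.038 averaged and from -0.056 to 0.24 with insHEL. For insHEL in NOD, Slc7a5 ran from -0.12 to 0.17, Slc7a11 from -0.59 to 3.26 and Slc1a4 from -0.38 to 0.10. For insHEL in B10, Slc7a1 ran from -0.25 to 0.098, Slc7a5 from -0.26 to 0.097, Slc7a11 from -0.088 to 1.23, Slc1a4 from -0.57 to 0.10 and Slc6a9 from -0.28 to 0.029. For the interaction, Slc7a5 ran from -0.099 to 0.26, Slc7a11 from -0.86 to 2.99, Slc1a4 from -0.24 to 0.43, Slc38a2 from -0.47 to 0.044 and Slc6a9 from -0.33 to 0.10. Low counts limit Slc7a11, Slc7a3, Slc6a9 and Slc1a5.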
